A study of Daphnia pulicaria with 8 samples.

Results

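Transcript levels in red and pale animals of Black Lake were compared, using 2 of the 8 libraries of a study of hypoxia and metabolic phenotype in the water flea Daphnia pulicaria. Both libraries were taken by their labels, Black Red (lake Black, phenotype Red) and Black Pale (lake Black, phenotype Pale). The other 6 libraries, a Red and a Pale one from each of Doe, Long and Round Lakes, are used here to say which Black differences they share. All libraries were made from whole adults of total RNA depleted of ribosomal RNA and prepared as directional libraries. The labels' protocols give 30 pooled animals for a lake and do not say whether that number holds for each phenotype. Each lake and phenotype has 1 library, so a difference within Black Lake has no replicate error and no p-value, and every difference below compares these libraries.

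Red colour in Daphnia comes mainly from haemoglobin dissolved in the blood. It is encoded by a family of closely similar genes, many with a pair of oxygen-binding domains in 1 protein, and animals are known to make more of it where oxygen is scarce. In arthropods, low oxygen is sensed by prolyl hydroxylases that mark hypoxia-inducible factor for breakdown when oxygen is present. Haemoglobin also needs haem, which mitochondria and cytosol build together from 5-aminolevulinate.

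The deposited tables hold 33069 genes and 109737 isoforms as FPKM, read fragments divided by transcript length and by library size. Differences are Red minus Pale on the log2(FPKM + 1) scale, which understates the change of low genes. A gene is called past the fold where this difference is at least 1 in size, a 2-fold ratio on that scale. Genes were measured where the mean of both Black libraries was at least 1 FPKM (12836 genes), and they are called well expressed at a mean of at least 10 FPKM (3193 genes). Steps between low FPKM values placed the depth of Black Red at 1.85 times that of Black Pale, and the other libraries at 0.901 to 1.12 times. Black Red had 21606 genes above 0 FPKM and Black Pale had 20179. Genes near 1 FPKM are therefore less certain, most of all in Black Pale.

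In Black Red, 18 of 26 measured globins were past the fold higher than in Black Pale, beside 2.32% of all genes. Apolipoprotein D genes and many cuticle and chitin genes were past the fold lower. Haem and glycolysis lists had medians above 0 (0.63 and 0.62), and glycolysis had 0 genes past the fold. Most genes differed little: the Spearman correlation across genes between Black Red and Black Pale was 0.888, against 0.845 in Doe, 0.804 in Long and 0.886 in Round. Of the 12836 measured genes, 298 (2.32%) were past the fold higher and 1061 (8.27%) lower in Black Red, together 10.6%. Regardless of size, 69.0% of measured genes lay below 0. Among the well expressed genes these counts were 86 (2.69%) higher and 395 (12.4%) lower. The lean towards lower values depended on the scaling. The median difference over all measured genes was -0.20 as deposited, -0.02 after scaling by size factors and 0.03 after quantile normalization. Of the genes past the fold, 78.1% were lower as deposited. After size factors 711 genes were lower and 417 higher (63.0% lower), and after quantile normalization 637 were lower and 466 higher (57.8% lower). A single uncharacterized gene, Daplx7pEVm025448, held 46.65% of the FPKM sum in Black Red and 42.17% in Black Pale; without it the lower share was 67.0%. List and gene values below are as deposited and are to be read against the median of -0.20. Counts past the fold in Black are to be read against 2.32% of all genes higher and 8.27% lower.

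**Figure D1:**
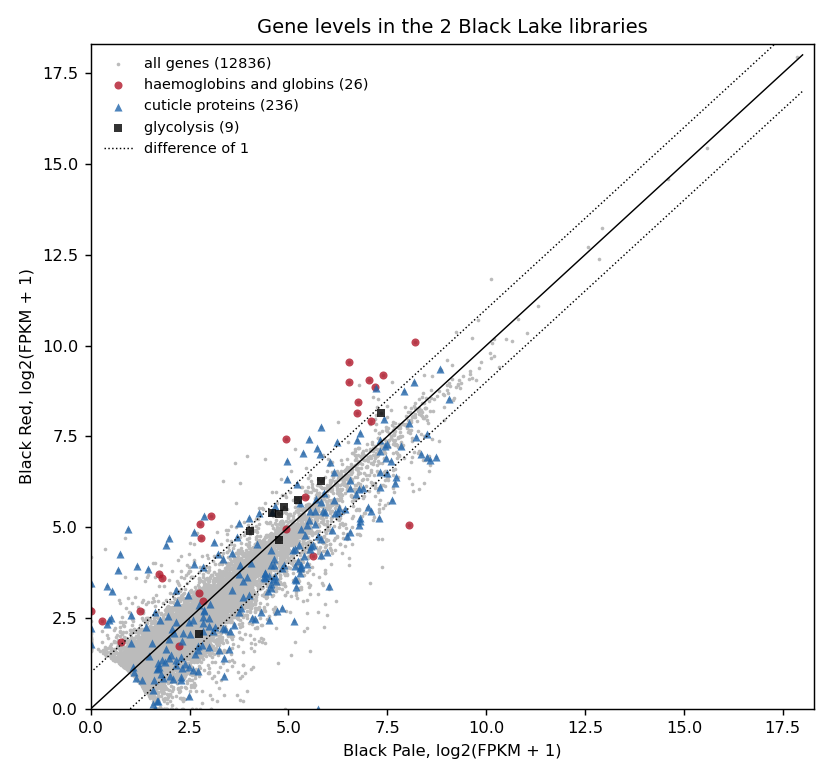
Level of each measured gene in Black Red (vertical axis) against Black Pale (horizontal axis), both as log2(FPKM + 1), with 12836 genes in grey, 26 globin genes as red circles, 236 cuticle genes as blue triangles and 9 glycolysis genes as black squares. Dotted lines mark a difference of 1; 18 globin genes lie above the upper line and 2 below the lower one, and cuticle genes lie beyond both lines.

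Of the 31 gene lists described here, the globins had the highest median in Black Lake. Of 34 genes with a globin name, 26 were measured, and 18 of these were past the fold higher in Black Red while 2 were past the fold lower, beside 2.32% and 8.27% of all genes. Their median difference was 1.75, and it was 1.96 with size factors and 1.95 with quantile normalization. Summed over the list, globins held 5267 FPKM in Black Red and 1722 FPKM in Black Pale, a ratio of 3.06. Elsewhere Red over Pale came to 1.54 in Doe, 1.96 in Long and 4.15 in Round, so Black lay second among the 4 lakes. The Black Red sum was close to the Doe Red sum of 5320 FPKM. The Black Pale sum lay between those of Round Pale (932 FPKM) and Long Pale (2165.6 FPKM), with Doe Pale at 3444 FPKM.

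**Figure D2:**
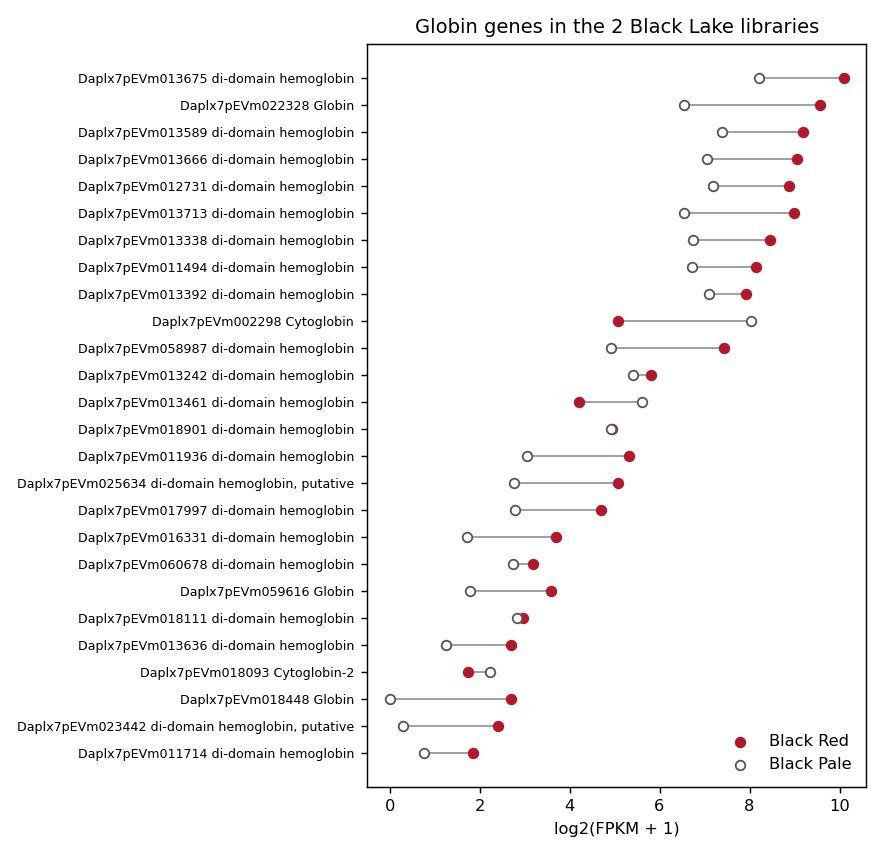
Levels of the 26 measured globin genes, 1 row each in order of mean FPKM, as log2(FPKM + 1) in Black Red (filled circles) and Black Pale (open circles). The filled circle lies to the right in 23 rows; Cytoglobin, Daplx7pEVm013461 and Cytoglobin-2 are the rows where it lies to the left.

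Daplx7pEVm022328, named Globin, had 753 FPKM in Black Red and 91.6 FPKM in Black Pale, a difference of 3.02. It was higher in Red in each of the other lakes as well, by 1.80 ± 0.97 (SD, n = 3 lakes). Among di-domain haemoglobins the most abundant was Daplx7pEVm013675, with 1092 FPKM in Black Red and 294 FPKM in Black Pale (1.89). Its levels in Black Red and in the Red libraries of Doe (1129 FPKM) and Long (950.3 FPKM) were alike, and what set Black apart from those lakes was the lower Pale level, since Pale animals had 764 FPKM in Doe and 773 FPKM in Long. Daplx7pEVm013589 also had a lower Pale level in Black than in Doe (464 FPKM) or Long (370.5 FPKM), with 579 FPKM in Black Red and 166 FPKM in Black Pale (1.80). Its differences were -0.15 in Doe, 0.33 in Long and 2.70 in Round.

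Other di-domain genes had larger differences elsewhere than in Black. Daplx7pEVm013713 had 509 FPKM in Black Red and 92.0 FPKM in Black Pale (2.45), whereas Long Pale had 2.82 FPKM and Round Pale 1.21 FPKM, giving differences of 6.48 and 5.69. Daplx7pEVm013338 differed by 1.71 in Black, with 351 FPKM in Black Red and 106.5 FPKM in Black Pale, and by 5.44 in Long and 5.12 in Round. Its Pale level was 6.83 FPKM in Long and 3.28 FPKM in Round. Both genes were thus well expressed in Black Pale but below 10 FPKM in the Pale libraries of Long and Round. Daplx7pEVm058987 had 171 FPKM in Black Red and 29.5 FPKM in Black Pale (2.50), and Daplx7pEVm013666 had 530.3 FPKM in Black Red and 131 FPKM in Black Pale (2.01). Daplx7pEVm012731, with 466 FPKM in Black Red and 145 FPKM in Black Pale (1.68), was past the fold higher in Red in all 4 lakes.

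A few globins did not follow. Cytoglobin (Daplx7pEVm002298), whose vertebrate namesake is a tissue globin and not a blood pigment, had 32.5 FPKM in Black Red and 262 FPKM in Black Pale, a difference of -2.97. Its differences were 0.29 in Doe, -1.72 in Long and 0.48 in Round, so the other lakes did not share 1 direction. The di-domain gene Daplx7pEVm013461 had 17.5 FPKM in Black Red and 48.2 FPKM in Black Pale (-1.41). Daplx7pEVm018901 was level in Black, with 29.7 FPKM in Black Red and 29.5 FPKM in Black Pale, but lower in Red in Doe (-2.03), Long (-0.90) and Round (-2.32). Of the 26 measured globins, 14 had the same sign in all 4 lakes. Copies as similar as these can share reads, so the sum is more certain than a single gene.

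Among hypoxia signalling genes, a prolyl hydroxylase and a low hypoxia-inducible factor gene were higher in Black Red, and the main hypoxia-inducible factor gene was not. Of 8 measured genes, 3 were past the fold higher and 0 lower. The prolyl hydroxylase gene Daplx7pEVm014955 had 16.0 FPKM in Black Red and 5.10 FPKM in Black Pale (1.48), and it was past the fold higher in Red in all 4 lakes. The other 2 past the fold, named after their values were seen, were low: Hypoxia-inducible factor 1-alpha Daplx7pEVm012460 had 1.85 FPKM in Black Red and 0.29 FPKM in Black Pale, and prolyl hydroxylase Daplx7pEVm017444 had 2.93 FPKM in Black Red and 0.80 FPKM in Black Pale. At these levels the unequal depth of the libraries matters most, and its part in both differences was not tested. The well expressed Hypoxia-inducible factor 1-alpha gene, Daplx7pEVm003281, had 32.6 FPKM in Black Red and 43.0 FPKM in Black Pale (-0.39), while in the other lakes it was slightly higher in Red, by 0.16 ± 0.11 (SD, n = 3 lakes). Its partner, Aryl hydrocarbon receptor nuclear translocator (Daplx7pEVm004304), had 19.6 FPKM in Black Red and 20.1 FPKM in Black Pale. The list median was -0.17 in Black, but size factors turned it to 0.03 and quantile normalization to 0.15, which makes its direction depend on the scaling.

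Genes of haem synthesis and breakdown were higher in Black Red, with a median of 0.63 over 12 genes, of which 9 lay above 0 and 3 were past the fold higher. The first step of the pathway is catalysed by 5-aminolevulinate synthase, and its well expressed gene, Daplx7pEVm006529, had 97.7 FPKM in Black Red and 42.4 FPKM in Black Pale (1.19). In the other lakes Red had 34.1 FPKM in Doe, 42.9 FPKM in Long and 26.9 FPKM in Round, and Pale had 29.9, 89.6 and 30.8 FPKM in those lakes. Black Red was thus the highest of the 8 libraries for this gene, followed by Long Pale. Uroporphyrinogen decarboxylase (Daplx7pEVm013495), a later enzyme of the pathway, had 17.5 FPKM in Black Red and 6.09 FPKM in Black Pale (1.39), against a mean of 0.19 ± 0.54 (SD, n = 3 lakes) elsewhere. The third gene past the fold, Porphobilinogen deaminase (Daplx7pEVm011113), was low, with 1.98 FPKM in Black Red and 0.39 FPKM in Black Pale. Translocator protein (Daplx7pEVm018726), a protein of the outer mitochondrial membrane, differed by 0.99 in Black and by 1.03 ± 0.47 in the others (SD, n = 3 lakes). Ferrochelatase (Daplx7pEVm010593), which inserts the iron, differed by 0.37. Summed FPKM of the list was 176 in Black Red and 85.0 in Black Pale, a ratio of 2.06, while the ratios elsewhere were 1.30 in Doe, 0.890 in Long and 1.03 in Round. Iron storage and transport genes were not higher: of 15 genes 0 were past the fold higher and 1 lower, Ferritin heavy subunit Daplx7pEVm020880, with 19.3 FPKM in Black Red and 45.1 FPKM in Black Pale.

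Glycolysis genes were moderately higher in Black Red, with 0 of 9 past the fold in either direction and a median of 0.62, against medians of -0.04 in Doe, 0.33 in Long and 0.04 in Round. Their summed FPKM was 597 in Black Red and 379 in Black Pale, a ratio of 1.57. Glyceraldehyde-3-phosphate dehydrogenase (Daplx7pEVm010997), a central enzyme of the pathway, had 284 FPKM in Black Red and 162 FPKM in Black Pale (0.80), and in the other lakes it differed by 0.16 ± 0.11 (SD, n = 3 lakes). The muscle-type 6-phosphofructokinase gene (Daplx7pEVm003406), the main control step, had 28.9 FPKM in Black Red and 15.4 FPKM in Black Pale (0.87). Phosphoglycerate kinase (Daplx7pEVm010975) differed by 0.81, Phosphoglycerate mutase 1a (Daplx7pEVm016741) by 0.66 and Triosephosphate isomerase 1a (Daplx7pEVm017102) by 0.62. These 5 had the largest differences of the list. The list median was 0.84 with size factors and 0.95 with quantile normalization, beside medians over all genes of -0.02 and 0.03. The 2 members below 0 were Hexokinase-1 (Daplx7pEVm007854, -0.12) and Hexokinase type (Daplx7pEVm006293, -0.70), the entry step for free glucose.

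The lists next to glycolysis held single genes with larger differences, but their medians were near 0. Of 11 genes for lactate and other anaerobic end products, 1 was past the fold higher and 0 lower, 7 lay below 0 and the median was -0.14 (0.06 with size factors). L-lactate dehydrogenase A chain (Daplx7pEVm012127), which turns pyruvate into lactate, had 92.5 FPKM in Black Red and 32.3 FPKM in Black Pale (1.49). It was higher in Red in every other lake too, by 0.62 ± 0.25 (SD, n = 3 lakes). Glycogen phosphorylase (Daplx7pEVm003141), the enzyme that takes glucose off the glycogen store, had 115 FPKM in Black Red and 63.3 FPKM in Black Pale (0.86), and Phosphoglucomutase-1 (Daplx7pEVm006332), the next step, had 10.1 FPKM in Black Red and 4.38 FPKM in Black Pale (1.04). A pair of further genes of that name were low and level (0.04 and -0.17), and Glycogen debranching enzyme (Daplx7pEVm000660) differed by 0.14. The glycogen and trehalose list was near level, with 1 of 14 genes past the fold higher, 1 lower and a median of 0.09. D-lactate dehydrogenase (Daplx7pEVm006010) had 5.30 FPKM in Black Red and 10.8 FPKM in Black Pale (-0.90).

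Mitochondrial energy genes differed little. Of 24 tricarboxylic acid cycle genes, 0 were past the fold higher and 1 lower, with a median of -0.19 that was 0.02 with size factors. The 1 gene was the flavoprotein subunit of succinate dehydrogenase (Daplx7pEVm004881), with 29.2 FPKM in Black Red and 62.9 FPKM in Black Pale (-1.08). It was lower in Red in the other lakes too, by -0.72 ± 0.22 (SD, n = 3 lakes). Medians were -0.06 for 37 complex I genes, -0.12 for 21 genes of complexes III and IV and 0.02 for 22 ATP synthase genes, which became 0.16, 0.09 and 0.23 with size factors. Fatty acid oxidation genes had a median of -0.33 over 21 genes, 17 of them below 0 beside 69.0% of all genes, and -0.12 with size factors. Very-long-chain acyl-CoA dehydrogenase (Daplx7pEVm005409), an entry enzyme of that pathway, had 19.1 FPKM in Black Red and 39.7 FPKM in Black Pale (-1.02).

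**Figure D3:**
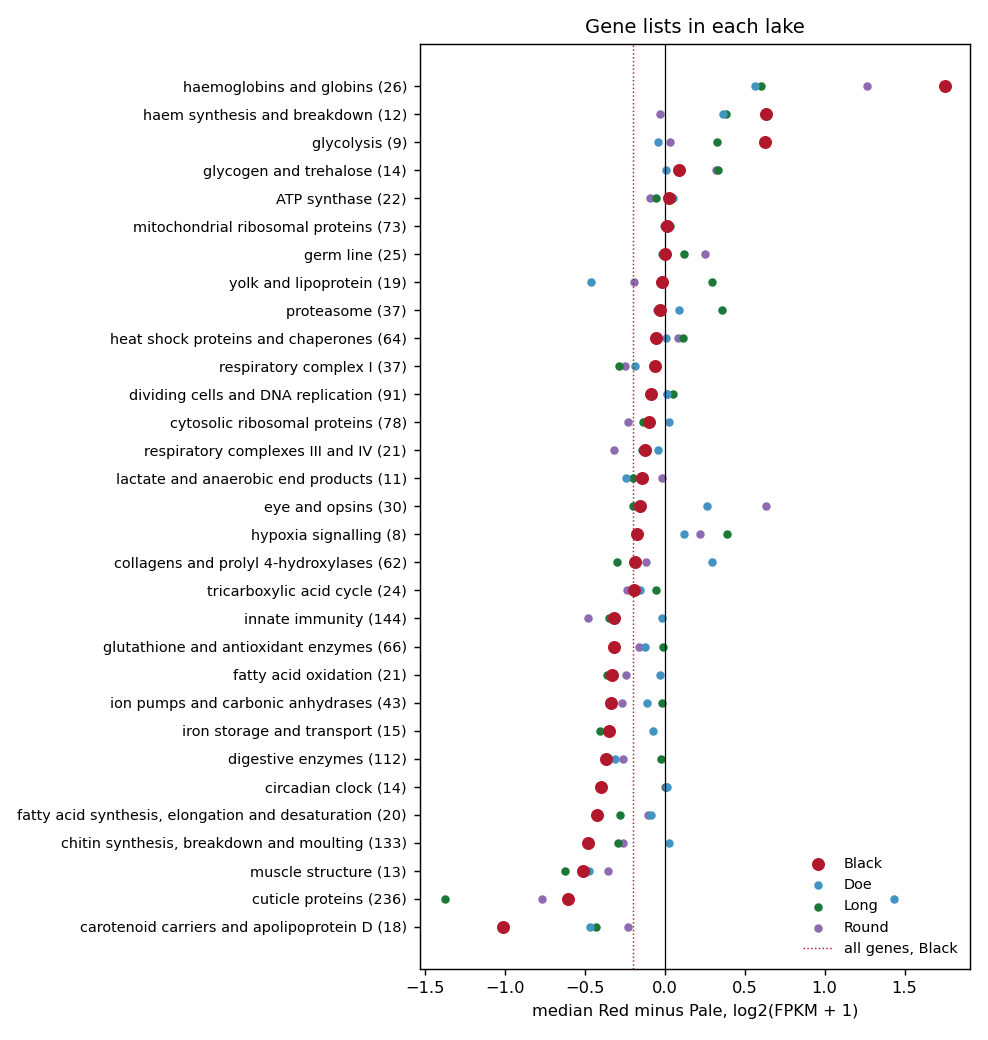
Median Red minus Pale difference on the log2(FPKM + 1) scale for 31 gene lists (rows, with the number of measured genes), in Black (large red points) and in Doe, Long and Round (small points); the dotted line is the Black median of all genes, -0.20. Globins (1.75), haem (0.63) and glycolysis (0.62) lie farthest to the right in Black, and apolipoprotein D and carotenoid carriers (-1.01) farthest to the left.

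The 3 genes described next carry the name of copper-zinc superoxide dismutase, an enzyme that converts superoxide to hydrogen peroxide, and were higher in Black Red. What they encode was not checked beyond the name. Daplx7pEVm000386 was among the 10 most abundant genes of Black Lake. It had 3620 FPKM in Black Red and 1120.3 FPKM in Black Pale (1.69), while the Red and Pale libraries of the other lakes lay between 660.3 and 1932 FPKM. Black Red was the highest of the 8 libraries, and the other lakes differed by -1.09 in Doe, 0.23 in Long and -0.08 in Round. Daplx7pEVm005660 had 386 FPKM in Black Red and 139 FPKM in Black Pale (1.46), and Daplx7pEVm000278 had 318 FPKM in Black Red and 150.3 FPKM in Black Pale (1.08). These 3 genes carried most of the sum of the glutathione and antioxidant list, 5151 FPKM in Black Red and 2416 FPKM in Black Pale. Of the list's 66 genes, 5 were past the fold higher and 6 lower, beside 2.32% and 8.27% of all genes. Below 0 lay 48 of the 66, beside 69.0% of all genes. The list median was -0.32, and it was -0.13 with size factors and -0.05 with quantile normalization. Peroxiredoxin-5 (Daplx7pEVm016534), which removes peroxides, had 22 FPKM in Black Red and 48.6 FPKM in Black Pale (-1.11).

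Apolipoprotein D and related lipocalins were lower in Black Red. The list of apolipoprotein D and carotenoid genes had 0 of 18 past the fold higher and 9 lower, with a median of -1.01, and -0.81 with size factors. By their names 10 of the 18 are lipocalins, 8 of them past the fold lower (median -1.25). The other 8 are retinoid and carotenoid enzymes, with 1 past the fold lower and a median of -0.34; this split was made after the values were seen. The list summed to 224 FPKM in Black Red and 511 FPKM in Black Pale. Apolipoprotein D Daplx7pEVm016393, a lipocalin that binds small hydrophobic molecules in animals studied so far, had 48.1 FPKM in Black Red and 174 FPKM in Black Pale (-1.83), and Daplx7pEVm019087 had 62.6 FPKM in Black Red and 131 FPKM in Black Pale (-1.05). Both were also lower in Red in Doe and Round but higher in Red in Long. Prostaglandin-H2 D-isomerase (Daplx7pEVm017095), of the same protein family, had 19.0 FPKM in Black Red and 61.1 FPKM in Black Pale (-1.63), close to the -1.49 ± 0.14 of the other lakes (SD, n = 3 lakes).

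Cuticle protein genes, used by arthropods to build the outer shell at each moult, differed in both directions. Of 344 genes with a cuticle name 236 were measured, and 37 were past the fold higher and 80 lower in Black Red, with a median of -0.60. The other lakes did not share 1 direction. In Doe 134 of the same genes were past the fold higher and 23 lower in Red, in Long 22 higher and 131 lower, and in Round 8 higher and 89 lower. Of all genes measured in each lake, 5.82% were past the fold higher and 5.79% lower in Doe, 4.09% and 10.1% in Long, and 3.52% and 5.98% in Round. Of the 37 genes higher in Black, 30 (81.1%) were past the fold higher in Doe, beside 134 of all 236 cuticle genes, and they are 22.4% of those 134. Past the fold lower in Long were 20 of the 37 (54.1%), beside 131 of all 236. Of the 80 lower in Black, 53 (66.3%) were also lower in Long (40.5% of 131), 40 in Round (44.9% of 89) and 10 in Doe (43.5% of 23). Higher in Doe were 43 of the 80 (53.8%), beside 134 of all 236. The summed level of the list was 9923 FPKM in Black Red and 12152 FPKM in Black Pale, above both libraries of Long and Round and above Doe Pale (5030.4 FPKM), while Doe Red had 13162 FPKM.

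**Figure D4:**
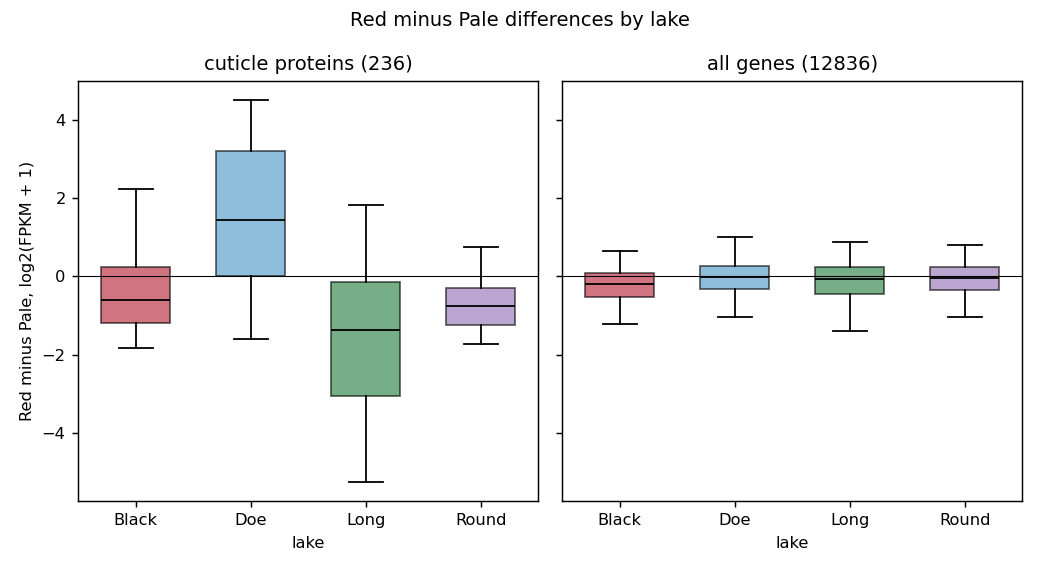
Red minus Pale differences on the log2(FPKM + 1) scale in each lake for 236 cuticle protein genes (left) and all 12836 measured genes (right); boxes span the quartiles with the median as a line, and whiskers run to the 5th and 95th percentiles. The cuticle median was -0.60 for Black; the Doe median was 1.43, that of Long -1.37 and that of Round -0.77, while the median of all genes was -0.20 in Black.

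Within the cuticle genes, families named alike lay on opposite sides. Cuticular protein 49Af had the highest median of all 247 name families with at least 5 measured members, 1.93 over 9 genes with 6 past the fold higher and 1 lower. This rank depended on the pseudocount: with 5 the median was 0.81, below the 1.39 of the di-domain hemoglobin precursor family. The most abundant 49Af member, Daplx7pEVm019612, had 451 FPKM in Black Red and 148 FPKM in Black Pale (1.60), and it ranged from 4.4 in Doe to -6.46 in Long, where the Red library was listed at 0. The family named Cuticle protein had a median of -1.01 over 69 genes, with 9 past the fold higher and 35 lower. Its medians were 2.36 in Doe, -2.67 in Long and -0.99 in Round. Pupal cuticle-like protein Daplx7pEVm019358 had 29.8 FPKM in Black Red and 0.93 FPKM in Black Pale (3.99), whereas Pupal cuticle protein Daplx7pEVm028779 was listed at 0 in Black Red and had 52.6 FPKM in Black Pale. Genes of chitin synthesis, breakdown and moulting leaned lower, with 1 of 133 past the fold higher and 23 lower, beside 2.32% and 8.27% of all genes. The median of this chitin list was -0.48, and -0.29 with size factors. Among them, ChtBD2 chitin-binding gene Daplx7pEVm016998 had 3.68 FPKM in Black Red and 42.9 FPKM in Black Pale (-3.23).

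Tissue markers were read because whole animals were used; in bulk libraries, fewer cells of a type and less RNA per cell cannot be told apart. All 13 muscle structure genes lay below 0 in Black, beside 69.0% of all genes, and 1 was past the fold, with a median of -0.51, -0.28 with size factors, and a sum of 1108 FPKM in Black Red and 1612 FPKM in Black Pale. Muscle medians were -0.47 in Doe, -0.62 in Long and -0.35 in Round. Troponin C Daplx7pEVm019394, a calcium sensor of the muscle filament, was the single gene past the fold, with 33.4 FPKM in Black Red and 81.5 FPKM in Black Pale. The counts of the next lists stand beside 2.32% of all genes past the fold higher and 8.27% lower. Digestive enzymes had 2 of 112 past the fold higher, 21 lower and a median of -0.36 (-0.17 with size factors). Their sum was 5072 FPKM in Black Red and 6156 FPKM in Black Pale. Eye genes had 0 of 30 higher, 2 lower, a median of -0.15 (0.05 with size factors) and a sum of 2818 FPKM in Black Red and 3450 FPKM in Black Pale. Dividing-cell genes had 5 of 91 higher, 8 lower and a median of -0.08 (0.10 with size factors), with sums of 1238 FPKM in Black Red and 1346 FPKM in Black Pale. Germ line genes had 0 of 25 higher, 4 lower and a median of 0.00 (0.17 with size factors), with sums of 364 FPKM in Black Red and 901 FPKM in Black Pale. The part of tissue make-up in the differences of other lists was not tested.

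The 4 germ line genes lower past the fold all belonged to the family with the lowest median, Tudor and KH domain-containing protein (-1.87 over 5 genes, 4 of them past the fold). Proteins of this name act on small RNAs of the germ line in mouse and fly. Daplx7pEVm020519 had 115 FPKM in Black Red and 340.05 FPKM in Black Pale (-1.56), and Daplx7pEVm025253 had 24.4 FPKM in Black Red and 164 FPKM in Black Pale (-2.70). The differences of both had the same sign in all 4 lakes. Yolk genes were split. The most abundant Vitellogenin-1 precursor, Daplx7pEVm000583, a main yolk protein, had 1327 FPKM in Black Red and 607 FPKM in Black Pale (1.13), against 0.12 ± 0.35 elsewhere (SD, n = 3 lakes). A second, Daplx7pEVm000647, had 57.4 FPKM in Black Red and 144 FPKM in Black Pale (-1.31), and the list had 3 of 19 genes past the fold higher, 3 lower and a median of -0.02.

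Digestive genes included some of the lowest differences of Black Lake. Pancreatic triacylglycerol lipase Daplx7pEVm014492, which splits dietary fat, had 3.76 FPKM in Black Red and 59.1 FPKM in Black Pale (-3.66), while the other 6 libraries lay between 16.5 and 58.5 FPKM. It does not stand for its family of 9 measured genes, with 0 past the fold higher, 1 lower and a median of 0.02. Alpha-amylase genes had a median of 0.22 over 7 genes, with 1 past the fold higher and 1 lower. Chymotrypsin elastase family member 2A (Daplx7pEVm014711), a gut protease, had 14.0 FPKM in Black Red and 163 FPKM in Black Pale (-3.45), and it was higher in Red in Long and Round. Innate immunity genes had 4 of 144 past the fold higher and 21 lower, beside 2.32% and 8.27% of all genes. The median of the immunity list was -0.31, and -0.18 with size factors. The largest differences among its well expressed members were mannose-binding C-type lectins, which bind sugars on microbes: Daplx7pEVm015969 had 7.96 FPKM in Black Red and 46.1 FPKM in Black Pale (-2.39). A galactose-binding C-type lectin, Daplx7pEVm018528, had 122 FPKM in Black Red and 378 FPKM in Black Pale (-1.62). Families named Neurotrophin 1 long protein (10 genes, median -1.22) and Spz1 (8 genes, -1.14), named after Spätzle ligands of fly Toll receptors, were among the 8 lowest, and both had positive medians in Doe, 0.93 and 0.59.

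Among well expressed named genes, the highest difference belonged to a Poly(U)-specific endoribonuclease, an RNA-cleaving enzyme. Daplx7pEVm014546 had 20.1 FPKM in Black Red and 0.29 FPKM in Black Pale (4.03), and the other 6 libraries had at most 2.16 FPKM. Black Red thus held the highest level, but the gene was picked for its large Black difference. The direction was shared, since Red was also higher in each other lake, by 1.02 ± 0.69 (SD, n = 3 lakes). Over the 5 measured genes of this name the Black median was 1.09. Long (1.18) and Round (1.03) had similar medians, and that of Doe was smaller (0.26). With a pseudocount of 5 the Black median of this family was 0.48. Its summed FPKM differed little, 148 in Black Red and 137 in Black Pale. A pair of Clip-domain serine proteases, members of extracellular cascades in arthropod blood, were also among the 12 highest. Daplx7pEVm010894 had 24.9 FPKM in Black Red and 0.82 FPKM in Black Pale (3.83), and Daplx7pEVm011652 had 123 FPKM in Black Red and 14.5 FPKM in Black Pale (3.0). They do not stand for their family, which had 8 of 79 genes past the fold higher, 10 lower and a median of -0.25 (-0.07 with size factors). The gene named Normal mucosa of esophagus-specific gene 1 protein (Daplx7pEVm025873), after a human gene, had 108 FPKM in Black Red and 11.6 FPKM in Black Pale (3.12), and Red was higher in all 4 lakes. Pollen-specific leucine-rich repeat extensin Daplx7pEVm013316, a plant name carried over by similarity, had 76.6 FPKM in Black Red and 9.11 FPKM in Black Pale (2.94).

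At the low end, Ecdysis triggering hormone receptor (Daplx7pEVm017345), which in insects receives the signal to shed the old cuticle, was listed at 0 in Black Red and had 29.1 FPKM in Black Pale. In the other lakes it was higher in Red, with 9.33 FPKM in Doe, 8.95 FPKM in Long and 3.41 FPKM in Round, against 0, 4.32 and 1.14 FPKM in Pale of those lakes. Black Pale was thus the highest library and Black Red shared the lowest value with Doe Pale. Contactin-associated protein Daplx7pEVm006125, a cell adhesion protein in vertebrate nerves, had 2.02 FPKM in Black Red and 45.5 FPKM in Black Pale (-3.94). Genes named for the low-density lipoprotein receptor, which takes up lipoproteins in vertebrates, had a family median of -1.74 over 6 genes. Among them Daplx7pEVm010274 had 2.60 FPKM in Black Red and 35.1 FPKM in Black Pale (-3.33). The acyl-activating enzyme named 4-coumarate--CoA ligase, Daplx7pEVm005131, had 5.03 FPKM in Black Red and 61.5 FPKM in Black Pale (-3.37); all 8 measured genes of that name lay below 0 in Black (median -1.20), whereas the family medians elsewhere were -0.07 in Doe, 0.03 in Long and -0.08 in Round.

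**Figure D5:**
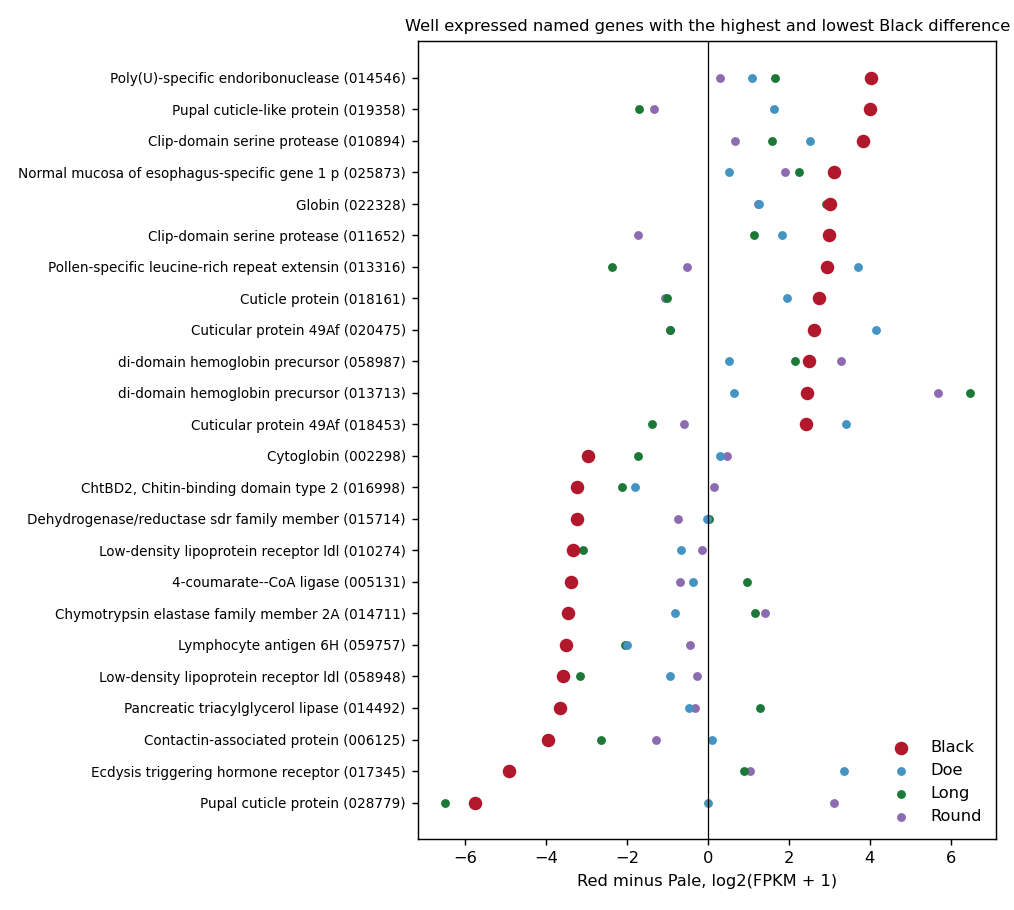
Red minus Pale difference on the log2(FPKM + 1) scale for the 12 highest and the 12 lowest well expressed named genes of Black Lake (rows, with the end of the gene identifier), in Black (large red points) and in Doe, Long and Round (small points). The points of the other lakes often lie nearer 0 or on the other side, as for Ecdysis triggering hormone receptor, and the Globin gene has all 4 lakes above 1.

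The other lakes shared the direction of the well expressed Black differences only in part. Of the 86 genes higher past the fold, 28 (32.6%) were also higher in Red in Doe, Long and Round, set beside 28.5% of the 815 well expressed genes that were higher in Black by any amount. Of the 395 lower ones, 136 (34.4%) were lower in all other lakes, beside 29.1% of 2376. Past the fold the same way in at least 1 other lake were 64 of the 86 (74.4%) and 262 of the 395 (66.3%). The matching shares were 20.1% of the 815 and 25.2% of the 2376. Each lake was also read over genes averaging at least 10 FPKM in its own libraries. Of these, 7.07% were past the fold higher and 7.89% lower in Doe, 5.02% and 13.2% in Long, and 2.30% and 8.31% in Round. Over all genes, the differences of Black correlated at 0.164 with those of Doe, 0.176 with Long and 0.171 with Round (Pearson, across 12865 genes that share libraries and so are not independent).

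Past the fold the same way in all 4 lakes were 9 measured genes higher in Red and 12 lower, listed after their values were seen. The higher ones included Globin Daplx7pEVm022328, the di-domain haemoglobins Daplx7pEVm013338 and Daplx7pEVm012731 and the prolyl hydroxylase Daplx7pEVm014955. A second mucosa-named gene, Daplx7pEVm026722, was listed at 0 in Black Pale and had 4.31 FPKM in Black Red. Daplx7pEVm015745, named Pathogen-related-like protein, had 11.7 FPKM in Black Red and 4.35 FPKM in Black Pale (1.25), the smallest of its 4 differences. The lower ones included Serpin B6 (Daplx7pEVm002307), a protease inhibitor, with 19.5 FPKM in Black Red and 52.9 FPKM in Black Pale (-1.39), and Contactin-associated protein 1 (Daplx7pEVm011086), with 1.20 FPKM in Black Red and 16.1 FPKM in Black Pale (-2.96).

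Whether any Black difference departed from the other lakes was tested with limma on the 4 within-lake differences, which assumes that Black varies between lakes as the others do. Of 12865 genes averaging 1 FPKM or more across all libraries, 0 (0%) passed the Benjamini-Hochberg adjusted threshold of 0.05, and 418 had an unadjusted p under 0.05, 117 higher and 301 lower in Black. The mean Red minus Pale difference of Doe, Long and Round, tested the same way, also gave 0 calls (0%), with 1094 genes at an unadjusted p under 0.05. No Black difference above is therefore shown to be particular to Black. The smallest p-value among named genes averaging 10 FPKM or more across all libraries belonged to a short-chain dehydrogenase of the SDR family, Daplx7pEVm015714. It had 6.75 FPKM in Black Red and 72.3 FPKM in Black Pale, while the other 6 libraries lay between 105 and 191 FPKM. Black minus the other lakes was -3.001 ± 0.44 (SE; limma adjusted p = 0.999). Protease m1 zinc metalloprotease (Daplx7pEVm002149) had 31.8 FPKM in Black Red and 10.8 FPKM in Black Pale, against lower levels in Red in all other lakes. It departed by 2.75 ± 0.42 (SE; limma adjusted p = 0.999). Mitochondrial 4-aminobutyrate aminotransferase (Daplx7pEVm008573), which breaks down the transmitter GABA, had 24.4 FPKM in Black Red and 153 FPKM in Black Pale, against 111 to 248 FPKM in the others. It departed by -2.70 ± 0.57 (SE; limma adjusted p = 0.999).

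Isoform use within genes was mostly alike in both Black libraries. Of 2422 genes with several isoforms and at least 10 FPKM in each Black library, 145 (5.99%) had an isoform whose share of the gene's FPKM differed by at least 20 percentage points, against 10.1% of such genes in Doe, 9.15% in Long and 8.41% in Round. The median of the largest shift per gene was 7.29 points. Of the 6 genes named for the largest shifts, Pollen-specific leucine-rich repeat extensin Daplx7pEVm008201 was the most abundant. Isoform Daplx7pEVm008201t12 held 25.5% of the gene in Black Red and 81.8% in Black Pale, at gene levels of 251 FPKM in Black Red and 144 FPKM in Black Pale. For Transcription factor Sp3 (Daplx7pEVm004266) the gene level was the same, 13.0 FPKM in Black Red and 13.4 FPKM in Black Pale, while isoform Daplx7pEVm004266t5 held 70.9% in Black Red and 15.9% in Black Pale. Its share lay between 31.5% and 59.6% in the other 6 libraries. The gene was picked for its large Black shift, so Black shares outside that range do not show that Black is unusual. Shares of isoforms that overlap depend on how reads were split between them, which the sources used here do not describe.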

How the data were processed

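The authors deposited FPKM values for genes and isoforms of 8 libraries, together with a log2 ratio of Pale over Red per lake, which was left aside since near 0 it is set by whatever value replaced the zeros. Reads were trimmed with Trimmomatic, per the submitters' processing notes. Which aligner, quantifier and build were used is not given in the sources used here. Read numbers are unknown, so no count model was run and no counting interval is given; relative depth came from the steps between low values of the 17402 genes with 1 isoform. Of the gene identifiers, 0 matched the RefSeq table in hand, so no coordinates or sequences are given.

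From the deposited FPKM, differences of log2(FPKM + 1) were computed per lake with a pseudocount of 1. Genes and lists were described without a test in Black. Black was compared with the other 3 lakes, and those lakes alone, with limma 3.58.1 (R 4.3.3) with a mean-variance trend on the within-lake differences, two-sided, adjusted by Benjamini-Hochberg over 12865 genes at 0.05; the procedure was tested on simulated data. Libraries of 1 lake are paired by design through these differences. Where nothing says that libraries are separate cultures, p-values measure only the spread between these samples. Lists are 31 name patterns. Members and lists were chosen with earlier results of these data known, and after values were seen a few names that matched by wording alone (such as assembly factors) were left out. Named genes were the 12 highest and 12 lowest well expressed named genes of Black Lake with 2 unnamed each way, the 10 most abundant, globins, up to 5 members per list by size of difference, up to 3 members of the 8 highest and lowest families, genes listed at 0 in 1 Black library, those opposite to all other lakes, those of smallest p and 6 genes by isoform shift; further members of short lists were named after their values were seen. Alternatives were pseudocounts of 0.5 and 5, scaling by size factors, quantile normalization, leaving out the most abundant gene, other filters and leaving out each other lake.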

Additional observations from a re-analysis of the deposited data

Results flagged for a closer look

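In 10 named genes the Black difference had the opposite sign to that of Doe, Long and Round, which all had 1 sign. Each was tested against the other lakes with limma and 0 passed. Those lower in Black Red were Ecdysis triggering hormone receptor (Daplx7pEVm017345, -4.91), the acyl-activating Amp dependent coa ligase (Daplx7pEVm013427, -1.96), an uncharacterized gene (Daplx7pEVm059654, -1.54), Carbonic anhydrase 2 (Daplx7pEVm016782, -1.38) and the nuclear import receptor Importin-5 (Daplx7pEVm020652, -1.12). Those higher in Black Red were Protease m1 zinc metalloprotease (Daplx7pEVm002149, 1.48), an uncharacterized gene (Daplx7pEVm020059, 1.34), DNA topoisomerase 2-binding protein 1-A (Daplx7pEVm021131, 1.18), Selenium dependent salivary glutathione peroxidase (Daplx7pEVm020428, 0.87) and Agrin-like protein (Daplx7pEVm017171, 0.81). The DNA topoisomerase 2-binding protein gene had 44.8 FPKM in Black Red and 19.1 FPKM in Black Pale, while Long had 3.77 FPKM in Red and 173 FPKM in Pale. Among all well expressed genes past the fold in Black, 3 of 86 higher and 6 of 395 lower ones were opposite in sign to all other lakes. With lakes of no difference also counted as not sharing the sign, 0 other lakes shared it for 3.49% of the 86 and 1.77% of the 395. The same held for 13.1% of the 815 well expressed genes higher in Black by any amount and 8.63% of the 2376 lower ones.

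The medians of 4 gene lists in Black also had the opposite sign to those of the other lakes, and these differences were not tested. They were hypoxia signalling (-0.17), dividing cells and DNA replication (-0.0826), heat shock proteins and chaperones (-0.0562) and the circadian clock (-0.40). The other lakes' medians were small: 0.12 to 0.39 for hypoxia signalling, 0.013 to 0.050 for dividing cells, 0.010 to 0.12 for heat shock proteins and 0.00041 to 0.012 for the clock, so for the last 3 lists the opposite sign rests largely on values near 0. With size factors the first 3 became 0.03, 0.10 and 0.15, and the circadian clock list stayed below 0 at -0.24.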

How the results depend on the processing

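The count of 298 genes past the fold higher in Black Red was 102 with a pseudocount of 5, 466 with quantile normalization, 86 at a mean of at least 10 FPKM and 461 with no filter. The 1061 lower genes were 357 with a pseudocount of 5, 637 with quantile normalization and 395 at 10 FPKM; size factors gave 711. The share of higher genes with the same sign in all other lakes, 21.5%, was 29.4% with a pseudocount of 5, 32.6% at 10 FPKM and 15.8% with no filter. That of lower genes, 28.6%, was 33.1% with a pseudocount of 5, 25% with size factors, 23.5% with quantile normalization, 23.7% without the most abundant gene, 34.4% at 10 FPKM and 24.5% with no filter. The cause was not tested. Both limma tests called 0 genes under each alternative run, leaving out Doe, Long or Round included. Of the differences of named genes recomputed under alternatives, 1216 of 1409 moved by less than 1 SD of the differences in the other 3 lakes, as did 131 of 217 list medians and 85 of 111 family medians. While past the fold, 0 changed direction, but this count is no test of robustness. A pseudocount cannot turn the direction of a gene. The scalings moved the median over all genes by only 0.18 (size factors) and 0.23 (quantile normalization). No paired analysis was possible because each group has a single library, other than the pairing of Red with Pale within lakes that both limma tests already use. Unequal depth limits genes near 1 FPKM.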

Other observations

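Of genes listed at 0 in Black Pale, 195 had at least 1 FPKM in Black Red and 6 had at least 5 FPKM. The reverse held for 217 genes at 1 FPKM and 6 at 5 FPKM. A Cuticle protein gene, Daplx7pEVm016961, had 9.94 FPKM in Black Red and was listed at 0 in Black Pale; Doe Red had 54.9 FPKM, and both Red libraries of Long and Round were listed at 0. A mannose-binding C-type lectin, Daplx7pEVm017460, had 9.33 FPKM in Black Red and was listed at 0 in Black Pale, with at most 1.21 FPKM in the other libraries. Chymotrypsin BI precursor Daplx7pEVm017266 was listed at 0 in Black Red and had 7.24 FPKM in Black Pale.

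Genes named SET and MYND domain-containing protein, which in animals include methyltransferases, were higher in Black Red in 17 of 18 measured members, but by little: the family median was 0.28, with 1 gene past the fold higher and 0 lower. Of all 12836 measured genes, 3950 lay above 0 in Black. The summed FPKM of this family was 43.8 in Black Red and 28.7 in Black Pale, low for 18 genes. With a pseudocount of 5 its median was 0.11. The part of unequal depth in these differences was not tested. Protein-building genes were near level, with medians of -0.10 for 78 cytosolic ribosomal proteins (0.13 with size factors), 0.02 for 73 mitochondrial ribosomal proteins and -0.03 for 37 proteasome subunits (0.18 with size factors). Collagen and prolyl 4-hydroxylase genes had 2 of 62 past the fold higher, 9 lower and a median of -0.18 (-0.04 with size factors). Collagen alpha-2(IV) chain Daplx7pEVm008090 had 41.2 FPKM in Black Red and 119 FPKM in Black Pale, while the other lakes ranged from 6.68 in Doe to -4.44 in Long. Ion pumps and carbonic anhydrases had 2 of 43 past the fold higher, 6 lower and a median of -0.34 (-0.18 with size factors). The list of fatty acid synthesis, elongation and desaturation had 1 of 20 past the fold higher, 2 lower and a median of -0.42 (-0.27 with size factors). The counts of these lists and of the collagen list stand beside 2.32% of all genes higher and 8.27% lower.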
